A study of Mus musculus with 10 samples.

Results

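Glucose enters a T cell through transporters of the Slc2a (GLUT) family and is split into pyruvate by the enzymes of glycolysis. The 30 mouse genes described here, of 23992 in the deposited tables, fall into 16 steps, of which glucose transport is the first and the others are enzyme steps with their isoenzymes. They were taken by symbol, by a rule that uses no measured value, from a list drawn up with earlier results of these data known, and each gene is represented by whichever of its transcripts had most reads in the 10 libraries together. Of the 30 genes, 29 had enough reads to be tested. The exception was Pgam2, the muscle form of phosphoglycerate mutase, which had 0 to 2 reads in each library.

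The series compared mouse CD8+ T cells, isolated from spleens of the strain C57BL/6N, that had met different cytokines in the presence or absence of an inhibitor of lactate dehydrogenase (LDH). All cells were first activated for 48 h with plate-bound anti-CD3 (2 µg/ml) and soluble anti-CD28 (2 µg/ml), then pooled, washed and cultured for a further 48 h. The 5 groups received no cytokine, human IL-2 (100 IU/ml), human IL-2 with LDHi, mouse IL-21 (100 ng/ml), or mouse IL-21 with LDHi. LDHi is the LDH inhibitor NCI-737, used at 1 µM from activation onward and added again at replating. Because it was present in both phases, its action during activation and during the cytokine phase cannot be told apart, and after replating it was given only together with a cytokine. The medium of all groups contained sodium pyruvate. Each group had 2 poly(A) RNA libraries, and the labels do not say whether these came from separate cultures or animals, so the p-values reflect only how far these libraries lie apart, and that spread may be technical.

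Hexokinases trap glucose as a phosphate, phosphofructokinase-1 commits it to breakdown, aldolase splits it into triose phosphates, and the later enzymes from Gapdh to pyruvate kinase regain ATP and NADH and end at pyruvate. LDH lies just beyond these enzymes: it turns pyruvate into lactate and returns the NAD+ that the Gapdh reaction uses. Activated T cells are known for fast glucose uptake and lactate release even when oxygen is plentiful, and IL-2 is known to sustain both in CD8+ T cells. Several steps exist as isoenzymes, separate genes for the same reaction that differ in tissue and regulation.

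Levels are given as RPKM (reads scaled to transcript length and library depth), which allows genes to be compared per length. Changes are log2 fold changes ± SE from edgeR's quasi-likelihood test on the read counts, with p-values adjusted by Benjamini-Hochberg over 14357 genes, and a gene is said to have risen or fallen where the adjusted p is below 0.05. Means are given ± SD with n = 2 libraries a group. A library held 27137191 to 46656183 reads on the transcripts used. IL-21 replicate 2 stood apart with 59.9% of the authors' total on these transcripts, and its RPKM lay below those of IL-21 replicate 1 for most of the 30 genes. The IL-21 pair also differed most from each other, with an SD of the log2 difference of 0.760 over all genes and 0.389 over the 30 genes. The labelled cell type was checked with 12 CD8 T cell markers, of which 11 were in the tables, and their summed level was 2100 to 2920 RPKM in all libraries. Markers of other cells were highest without cytokine: a macrophage and monocyte list summed to 154 to 206.6 RPKM there, 53.6 to 59.9 RPKM with IL-21 and 7.98 to 22.4 RPKM in the other groups, and a basophil and mast cell list to 328 to 684 RPKM, 107 to 137 RPKM and at most 4.98 RPKM.

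In cells without cytokine the 30 genes together took 0.395% ± 0.0104 of the reads. The share was 2.10% ± 0.135 with IL-2, 0.491% ± 0.0101 with IL-2 + LDHi, 0.436% ± 0.0472 with IL-21 and 0.289% ± 0.00321 with IL-21 + LDHi. IL-2 alone thus stood above all other groups in both libraries, and IL-21 + LDHi below them. Gapdh, the enzyme that oxidises glyceraldehyde phosphate, had the highest level of the 30 genes in every group, from 280.0 ± 1.68 RPKM with IL-21 + LDHi to 3005 ± 117 RPKM with IL-2. Without cytokine it was followed by Aldoa (178 ± 13 RPKM), Pkm (166 ± 8.49 RPKM), Gpi1 (132 ± 21.9 RPKM), Eno1 (112 ± 16 RPKM) and Pgk1 (91.7 ± 6.39 RPKM). The libraries of Aldoa and Pkm overlapped, as did those of Gpi1 and Eno1. The transporters, hexokinases and PFKFB genes were far lower, from 1.21 ± 0.0188 RPKM for Pfkfb4 to 38.3 ± 0.839 RPKM for Hk1.

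**Figure D1:**
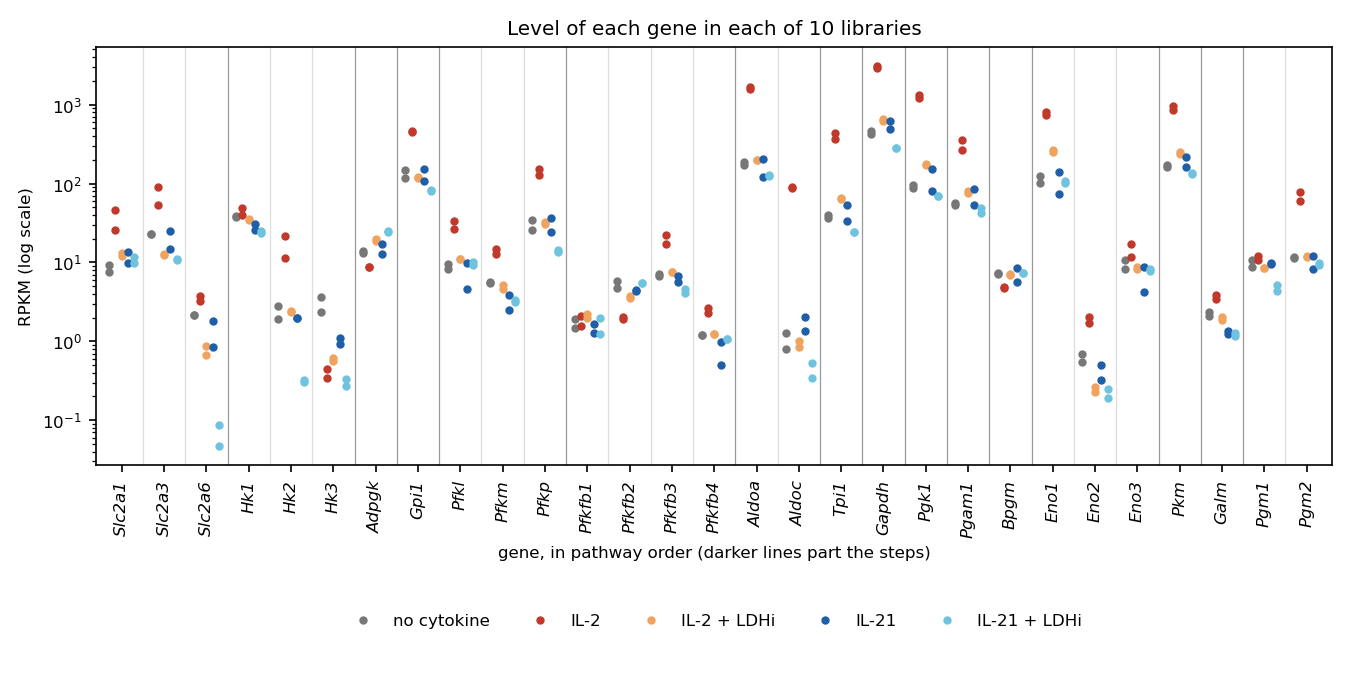
RPKM of 29 of the 30 genes (Pgam2, at 0 to 2 reads, is left out) on a log scale, genes in pathway order, with 1 point for each of the 2 libraries of the 5 groups. The IL-2 points of Aldoc (88.0 and 91.3 RPKM) lie far above all others of that gene, and the IL-21 + LDHi points of Slc2a6 (0.0467 and 0.0859 RPKM) and Hk2 (0.303 and 0.322 RPKM) far below.

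The first comparison asked what IL-2 does to these genes in pre-activated cells. With IL-2, 20 of the 29 tested genes rose and 4 fell against cells without cytokine, while 50.5% of all tested genes were called in this comparison, 25.6% higher and 24.8% lower. The median change of the 29 genes was 1.63, against -0.03 over all genes tested. The largest rises were those of Aldoc, Pgk1, Tpi1, Aldoa and Hk2. The 4 genes that fell were Hk3, Pfkfb2, Adpgk and Bpgm.

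Among the transporters, Slc2a1 (GLUT1, the widely expressed basal transporter) stood at 9.21 and 7.58 RPKM without cytokine and at 46.4 and 25.9 RPKM with IL-2. It rose by 2.09 ± 0.25 (adjusted p = 0.000186), with no overlap between the groups although the IL-2 libraries differed widely from each other. Slc2a3 (GLUT3, a transporter with high affinity for glucose) was the more abundant, at 22.7 and 22.9 RPKM without cytokine and 89.4 and 53.4 RPKM with IL-2. Its change was 1.63 ± 0.23 (adjusted p = 0.000439), again with a wide IL-2 pair. Slc2a6 (GLUT6, a transporter found on lysosomes) was at 2.17 and 2.13 RPKM without cytokine and 3.24 and 3.7 RPKM with IL-2, a difference of 0.67 ± 0.29 that missed the threshold (adjusted p = 0.0779).

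The hexokinases went different ways. Hk1, the main form in these cells by level, was at 37.7 and 38.9 RPKM without cytokine and 49.1 and 40.3 RPKM with IL-2, a difference of 0.21 ± 0.12 that did not pass (adjusted p = 0.175). Hk2, the inducible form known from muscle and tumours, was at 1.93 and 2.79 RPKM without cytokine and 21.9 and 11.5 RPKM with IL-2, and rose by 2.81 ± 0.31 (adjusted p = 0.000104). Both IL-2 libraries were above both controls for Hk2, but replicate 1 stood well above replicate 2. Hk3, a hexokinase best known from myeloid cells, was at 2.35 and 3.59 RPKM without cytokine and 0.344 and 0.449 RPKM with IL-2, and fell by 2.92 on the log2 scale (SE 0.27, adjusted p = 4.17e-05). Here 10 of 11 tested macrophage and monocyte markers, 7 of 7 neutrophil markers and 7 of 7 basophil and mast cell markers fell. The summed macrophage and monocyte level was 154 to 206.6 RPKM without cytokine and 11.6 to 14.2 RPKM with IL-2. Most of the IL-2 sum was Cd68, at 9.18 and 12.2 RPKM against 9.59 and 9.76 RPKM without cytokine. Lyz2 was at 1.66 and 1.11 RPKM with IL-2, and C1qa had no read in 1 IL-2 library. The part of these markers in the change of Hk3 was not tested. In bulk RNA fewer cells of a type and less RNA per cell cannot be told apart. Adpgk, an ADP-using glucokinase of the endoplasmic reticulum, was at 13.1 and 14.1 RPKM without cytokine and 8.75 and 8.64 RPKM with IL-2, a small but tight difference (-0.67 ± 0.10, adjusted p = 0.000741).

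Between hexose phosphate and triose phosphate the changes were moderate. Gpi1, which turns glucose phosphate into fructose phosphate, went from 147 and 116 RPKM to 448 and 469.6 RPKM and rose by 1.78 ± 0.14 (adjusted p = 1.82e-05). All 3 genes for phosphofructokinase-1 rose. The platelet form Pfkp was at 34.9 and 25.5 RPKM without cytokine and 152 and 128 RPKM with IL-2 (2.19 ± 0.18, adjusted p = 2.11e-05). The liver form Pfkl was at 9.47 and 8.27 RPKM against 33.8 and 26.8 RPKM (1.76 ± 0.24, adjusted p = 0.000348). The muscle form Pfkm rose least, from 5.43 and 5.72 RPKM to 14.8 and 12.6 RPKM (1.28 ± 0.15, adjusted p = 0.00016). None of these groups overlapped.

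The 4 PFKFB genes encode enzymes that make and remove the fructose bisphosphate that switches phosphofructokinase-1 on, and they did not move together. Pfkfb3, the form with the strongest bias towards making it, was at 6.80 and 7.16 RPKM without cytokine and 22.1 and 17.1 RPKM with IL-2, and rose by 1.47 ± 0.14 (adjusted p = 5.97e-05). Pfkfb2, known as the heart form, was at 4.80 and 5.84 RPKM without cytokine and 1.92 and 2.02 RPKM with IL-2. It fell by 1.45 (SE 0.14, adjusted p = 5.73e-05), so that the levels of Pfkfb2 and Pfkfb3 lay further apart with IL-2. Pfkfb4 rose from 1.19 and 1.22 RPKM to 2.27 and 2.64 RPKM (1.00 ± 0.22, adjusted p = 0.00467), and Pfkfb1, the liver form, was at 1.24 to 2.22 RPKM over the 10 libraries and was called in none of the 9 comparisons.

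Of the 29 genes, Aldoc had the largest change. Aldoc, the aldolase best known from brain (chr11:78323073-78327781 on the plus strand, GRCm38.p6), was at 1.28 and 0.807 RPKM without cytokine and at 91.3 and 88.0 RPKM with IL-2. The rise was 6.39 ± 0.26, or 84.0-fold (adjusted p = 2.01e-06), and the 2 IL-2 libraries lay close together. Aldoa, the main aldolase (chr7:126795234-126800994, minus strand), went from 188 and 169 RPKM to 1592 and 1662 RPKM, a rise of 3.17 ± 0.16 (adjusted p = 3.87e-06). Aldoa thus remained the more abundant gene by far, although the fold change of Aldoc was larger.

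From triose phosphate isomerase to pyruvate kinase, Tpi1, Gapdh, Pgk1, Pgam1, Eno1, Eno2 and Pkm rose, Eno3 did not pass and Bpgm fell. Tpi1, which interconverts the triose phosphates, rose from 36.9 and 40.3 RPKM to 440.5 and 365 RPKM (3.37 ± 0.16, adjusted p = 2.87e-06). Gapdh rose from 459 and 429 RPKM to 3088 and 2923 RPKM (2.74 ± 0.11, adjusted p = 2.15e-06). Pgk1, the first step that regains ATP (chrX:106187100-106203699, plus strand), rose from 96.2 and 87.2 RPKM to 1343 and 1217 RPKM (3.79 ± 0.20, adjusted p = 4.32e-06). For each of these genes the lower IL-2 library was many times above the higher control. Pgam1, the phosphoglycerate mutase of most tissues, rose from 53.1 and 56.3 RPKM to 359 and 263 RPKM (2.49 ± 0.19, adjusted p = 1.79e-05). Pkm, pyruvate kinase, rose from 172 and 159.8 RPKM to 953 and 866 RPKM (2.44 ± 0.12, adjusted p = 2.87e-06).

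Of the enolases, Eno1 (the common form) carried nearly all of the level, from 124 and 101 RPKM to 817 and 744 RPKM with IL-2 (2.78 ± 0.21, adjusted p = 1.38e-05). Eno2, the neuronal form, was low at 0.695 and 0.547 RPKM and rose to 1.72 and 2.05 RPKM (1.58 ± 0.32, adjusted p = 0.00336). Eno3, the muscle form, was at 10.8 and 8.32 RPKM without cytokine and 11.8 and 17.0 RPKM with IL-2, which missed the threshold (0.57 ± 0.25, adjusted p = 0.0895). Bpgm, which makes the bisphosphoglycerate known from red blood cells, was at 7.44 and 7.21 RPKM without cytokine and 4.86 and 4.77 RPKM with IL-2 (-0.62 ± 0.14, adjusted p = 0.00451). An erythroid marker list summed to 9.30 and 16.6 RPKM without cytokine and 3.71 and 4.34 RPKM with IL-2. With IL-2 + LDHi the list summed to 0.309 and 0.274 RPKM, and Bpgm was at 7.21 and 7.0 RPKM. The part of these markers in the changes of Bpgm was not tested.

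On the side branches, Pgm2 and Pgm1 as the tables name them encode phosphoglucomutases, which link glycolysis to glycogen. By their transcripts the tables' Pgm2 (chr4:99929451-99987294) is the gene that the current RefSeq table calls Pgm1, and the tables' Pgm1 (chr5:64092919-64128355) is Pgm2 there. The tables' Pgm2 rose from 11.7 and 11.3 RPKM to 79.1 and 59.4 RPKM (2.57 ± 0.16, adjusted p = 6.22e-06). The tables' Pgm1 was at 8.67 and 10.9 RPKM without cytokine and 12.2 and 10.8 RPKM with IL-2, and the groups overlapped (0.21 ± 0.17, adjusted p = 0.337). Galm, which interconverts the ring forms of galactose and glucose, rose slightly from 2.33 and 2.10 RPKM to 3.88 and 3.41 RPKM (0.70 ± 0.18, adjusted p = 0.00979), and was the 1 call of the 24 that was lost under any alternative (adjusted p = 0.0767 without IL-2 replicate 1).

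**Figure D2:**
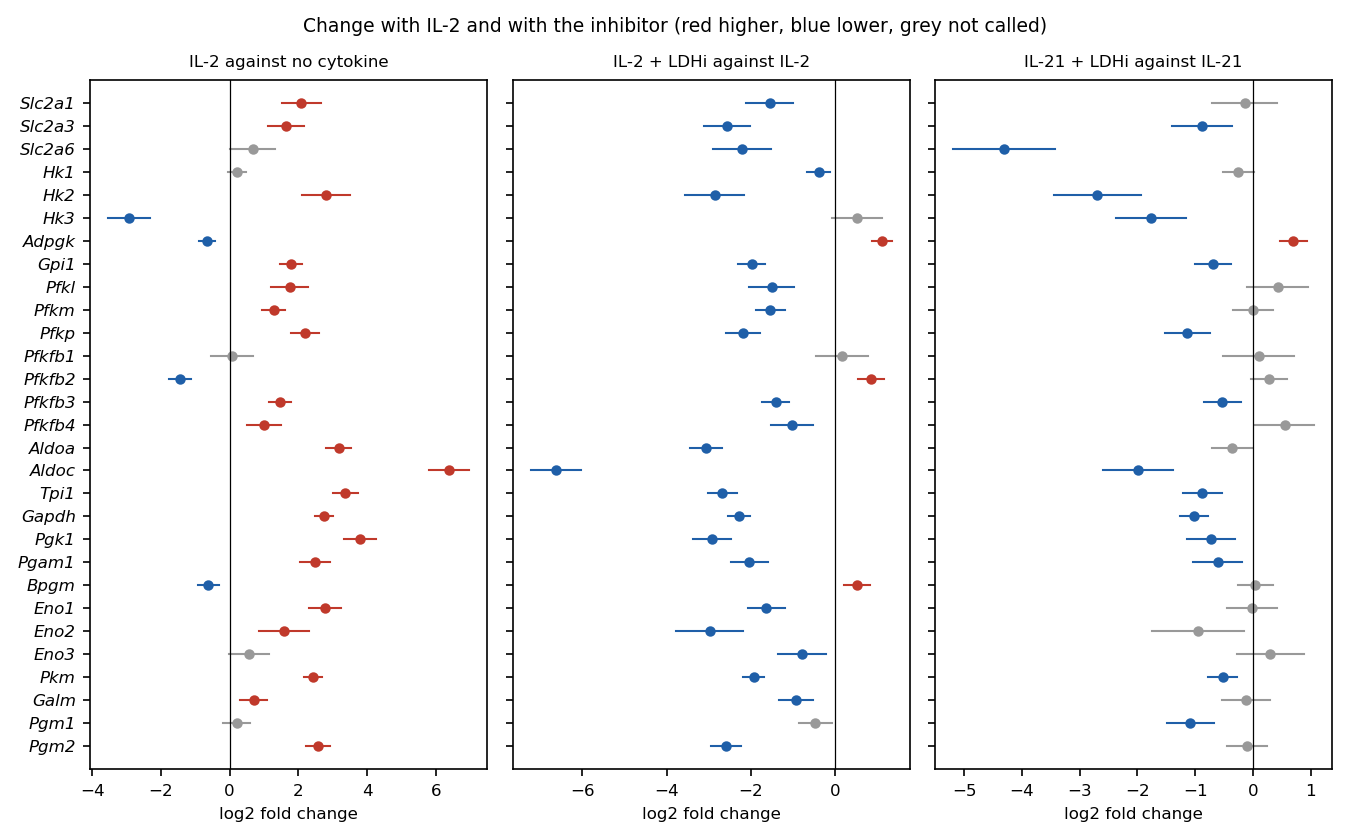
Log2 fold change (point) and 95% interval (bar) of 29 genes for IL-2 against no cytokine, IL-2 + LDHi against IL-2 and IL-21 + LDHi against IL-21, red where risen, blue where fallen and grey where not called. The axes differ between panels: Aldoc reaches 6.39 in the left panel, -6.63 in the middle panel and -1.98 in the right panel, where Slc2a6 is lowest at -4.31.

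With IL-21, 1 of the 29 genes rose and 2 fell against cells without cytokine. That is 10.3% of them, near the 11.5% of all tested genes called in that comparison (5.65% higher, 5.9% lower), and the median change was -0.03. Gapdh rose from 459 and 429 RPKM to 624 and 490.2 RPKM (0.48 ± 0.11, adjusted p = 0.0237). Pfkm was at 5.43 and 5.72 RPKM without cytokine and fell to 3.91 and 2.52 RPKM (-0.66 ± 0.15, adjusted p = 0.0269). Hk3 fell to 1.09 and 0.911 RPKM from 2.35 and 3.59 RPKM (-1.41 ± 0.25, adjusted p = 0.00922), while 6 of 11 macrophage and monocyte markers and 4 of 7 basophil and mast cell markers fell too, whose part in it was not tested. None of the 3 calls held under every alternative: leaving out replicate 2 of the cells without cytokine left 0 of 29, leaving out either IL-21 library gave 7, and leaving out any library of IL-2 + LDHi or IL-21 + LDHi gave 1. For Aldoc the difference was 0.83 ± 0.24 with an interval of 0.28 to 1.37 (adjusted p = 0.0578), and for Pgk1 0.45 ± 0.18 with 0.03 to 0.87, so that moderate increases with IL-21 are not excluded by these intervals.

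Set directly against IL-2, IL-21 gave lower values for 23 of the 29 genes and higher values for 4, against 49.6% of all tested genes called (24.9% higher, 24.7% lower). The median difference was -1.70 over the 29 genes and 0.02 over all genes. Aldoc was 47.4-fold lower (-5.57 ± 0.25, adjusted p = 4.41e-06), at 2.03 and 1.35 RPKM. Pgk1 differed by -3.33 ± 0.20 (adjusted p = 8.66e-06) and Hk2 by -2.91 ± 0.31 (adjusted p = 0.000113). The 4 genes that were higher with IL-21 were those that had fallen with IL-2, namely Hk3 (1.51 ± 0.26), Pfkfb2 (1.34 ± 0.14), Adpgk (0.95 ± 0.10) and Bpgm (0.71 ± 0.14). Both comparisons share the IL-2 libraries. In IL-21 against IL-2, 10 of 11 macrophage and monocyte markers, 6 of 7 neutrophil markers and 7 of 7 basophil and mast cell markers were higher too, and their part in the difference of Hk3 was not tested. Pfkfb1 and the tables' Pgm1 were not called. Slc2a6, Hk1 and Eno3 lost the call when 1 IL-2 library was left out, with adjusted p = 0.0557 for Slc2a6 without replicate 2 and, over all alternatives, up to 0.078 for Hk1 (lost without replicate 1) and 0.11 for Eno3 (lost without replicate 2).

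LDHi given with IL-2 lowered most of the pathway. Of the 29 genes, 23 fell and 3 rose against IL-2 alone, with 39.4% of all tested genes called (17.8% higher, 21.6% lower), and the median change was -1.63 against 0.01 over all genes. Aldoc fell from 91.3 and 88.0 RPKM to 1.01 and 0.842 RPKM, a 98.9-fold drop (-6.63 ± 0.26, adjusted p = 3.53e-06). Aldoa fell from 1592 and 1662 RPKM to 199 and 201 RPKM (-3.06 ± 0.16, adjusted p = 8.24e-06). Pgk1 fell to 171 and 178 RPKM (-2.92 ± 0.20, adjusted p = 1.87e-05). In each case the libraries of the 2 groups lay far apart and those within a group close together.

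Among the genes of glucose entry, Hk2 fell from 21.9 and 11.5 RPKM to 2.34 and 2.41 RPKM (-2.86 ± 0.31, adjusted p = 0.000174). Slc2a3 fell from 89.4 and 53.4 RPKM to 12.3 and 12.6 RPKM (-2.56 ± 0.24, adjusted p = 8.44e-05). Slc2a1 fell to 12.2 and 13.1 RPKM (-1.56 ± 0.25, adjusted p = 0.00135), and Slc2a6 fell from 3.24 and 3.7 RPKM to 0.663 and 0.884 RPKM (-2.21 ± 0.30, adjusted p = 0.000608). Slc2a6 therefore fell with the inhibitor although its difference between IL-2 and no cytokine had not passed. Hk1 fell slightly (-0.40 ± 0.12, adjusted p = 0.0251), and that call was lost without IL-2 replicate 1 or either IL-2 + LDHi library (adjusted p up to 0.212 over all alternatives). Hk3, at 0.568 and 0.606 RPKM, was not called (0.52 ± 0.26, adjusted p = 0.147). In this comparison 7 of 11 macrophage and monocyte markers rose and 1 fell. Of 7 neutrophil markers 0 were called, and 2 of 7 basophil and mast cell markers fell. The part of these markers in the changes of Slc2a6 and Hk3 was not tested.

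Of the middle and late enzymes, Pfkp fell to 30.4 and 32.5 RPKM (-2.19 ± 0.18, adjusted p = 4.31e-05), Tpi1 to 63.7 and 66.1 RPKM (-2.67 ± 0.15, adjusted p = 1.02e-05) and Gapdh to 616 and 652 RPKM (-2.29 ± 0.11, adjusted p = 7.32e-06). The tables' Pgm2 fell to 11.7 and 12.1 RPKM (-2.58 ± 0.16, adjusted p = 1.26e-05). Eno2 fell below all other groups but IL-21 + LDHi, to 0.260 and 0.229 RPKM (-2.98 ± 0.35, adjusted p = 0.000266). Eno1 fell to 248 and 269.9 RPKM (-1.63 ± 0.20, adjusted p = 0.000315), while Pkm, Pgam1, Gpi1, Pfkl, Pfkm, Pfkfb3, Pfkfb4, Galm and Eno3 changed by -2.04 (Pgam1) to -0.79 (Eno3).

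The 3 genes that rose with the inhibitor were Adpgk, Pfkfb2 and Bpgm, each of which had fallen with IL-2. Both comparisons share the IL-2 libraries, with opposite sign, so these directions are not independent of each other. Adpgk went from 8.75 and 8.64 RPKM to 18.5 and 19.8 RPKM (1.10 ± 0.10, adjusted p = 8.67e-05). Pfkfb2 went from 1.92 and 2.02 RPKM to 3.76 and 3.52 RPKM (0.85 ± 0.14, adjusted p = 0.00163). Bpgm went from 4.86 and 4.77 RPKM to 7.21 and 7.0 RPKM (0.52 ± 0.14, adjusted p = 0.0142), with no overlap in any of the 3. The call of Bpgm was lost without any 1 of the IL-2 or IL-2 + LDHi libraries (adjusted p up to 0.104 over all alternatives), that of Eno3 without IL-2 replicate 2 or any 1 of the 4 libraries with inhibitor (up to 0.291), and that of Pfkfb4 without IL-2 replicate 2 or either IL-2 + LDHi library (up to 0.0574).

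With IL-21, LDHi lowered 14 of the 29 genes and raised 1, against 31.4% of all tested genes called (11.1% higher, 20.3% lower), and the median change was -0.53 against -0.03 over all genes. The largest drop was that of Slc2a6, from 1.81 and 0.857 RPKM to 0.0859 and 0.0467 RPKM, which rest on 9 and 5 reads. It fell 19.8-fold (-4.31 ± 0.39, adjusted p = 5.3e-05), and no IL-21 + LDHi library came near any other library. Hk2 fell from 1.95 and 1.98 RPKM to 0.303 and 0.322 RPKM (-2.69 ± 0.33, adjusted p = 0.000356). Aldoc fell from 2.03 and 1.35 RPKM to 0.527 and 0.340 RPKM (-1.98 ± 0.27, adjusted p = 0.000591). These 3 genes, a transporter, a hexokinase and an aldolase isoenzyme, were thus already low with IL-21 and lower still with the inhibitor.

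Hk3 fell from 1.09 and 0.911 RPKM to 0.272 and 0.328 RPKM (-1.77 ± 0.27, adjusted p = 0.00117), together with 9 of 11 macrophage and monocyte markers, 6 of 7 neutrophil markers and 7 of 7 basophil and mast cell markers, whose part in the changes of Hk3 and Slc2a6 was not tested. Pfkp fell from 37.0 and 24.1 RPKM to 13.6 and 14.4 RPKM (-1.14 ± 0.17, adjusted p = 0.00113), and the tables' Pgm1 from 9.61 and 9.95 RPKM to 5.15 and 4.36 RPKM (-1.09 ± 0.18, adjusted p = 0.00177). Gapdh fell from 624 and 490.2 RPKM to 281 and 279 RPKM (-1.02 ± 0.11, adjusted p = 0.000136). Slc2a3, Tpi1, Pgk1, Gpi1, Pgam1, Pfkfb3 and Pkm changed by -0.88 to -0.53. Adpgk alone rose, from 17.2 and 12.8 RPKM to 24.4 and 25.0 RPKM (0.70 ± 0.10, adjusted p = 0.000954). Slc2a1 was at 13.7 and 9.76 RPKM with IL-21 and 9.86 and 11.6 RPKM with the inhibitor, so the groups overlapped (-0.15 ± 0.24, interval -0.70 to 0.41), and Eno1 likewise overlapped (-0.02 ± 0.19, interval -0.45 to 0.42). The calls of Slc2a3, Pfkfb3, Pgk1, Pgam1 and Pkm were each lost without either IL-21 + LDHi library, with adjusted p up to 0.192 over all alternatives for Pgam1, which was also lost without IL-21 replicate 1 or either IL-2 + LDHi library.

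Whether the inhibitor acted differently under the 2 cytokines was tested as the effect of LDHi with IL-21 minus its effect with IL-2. This difference passed for 20 of the 29 genes, 18 of them positive and 2 negative, with 21.8% of all tested genes called (7.98% positive, 13.8% negative). A positive value means that the change with IL-21 was less negative or not negative. Pfkl and Pfkfb4 are of the latter kind, with ratios of mean RPKM of 1.34 and 1.46 for IL-21 + LDHi to IL-21. The median was 1.29, against -0.08 over all genes. The largest differences were those of Aldoc (4.64 ± 0.37, adjusted p = 6.32e-05), Aldoa (2.70 ± 0.22, adjusted p = 6.72e-05), the tables' Pgm2 (2.48 ± 0.22, adjusted p = 0.000104) and Pgk1 (2.19 ± 0.26, adjusted p = 0.000579). All 4 are genes that IL-2 had raised, by 2.57 to 6.39, and the difference uses the same IL-2 libraries as that rise.

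A more negative change with IL-21 was found for Hk3 (-2.29 ± 0.37, adjusted p = 0.00285) and Slc2a6 (-2.10 ± 0.50, adjusted p = 0.0164). This difference was negative too for 9 of 11 macrophage and monocyte markers, 1 of 7 neutrophil markers and 6 of 7 basophil and mast cell markers, whose part in both was not tested. On the scale of log2(RPKM + 1) the Slc2a6 difference was 0.24 in limma (adjusted p = 0.587), and it also lost the call without either IL-2 library, IL-2 + LDHi replicate 2 or IL-21 + LDHi replicate 2. Hk2 changed by -2.86 with IL-2 and by -2.69 with IL-21, and the difference of 0.16 ± 0.44 had an interval of -0.83 to 1.16 (adjusted p = 0.829). Adpgk rose with both, and its difference of -0.40 ± 0.14 did not pass (adjusted p = 0.0781). Of the 20 calls, those of Eno2, Pfkfb3, Pfkp and Slc2a1 were also lost without either IL-2 + LDHi library (adjusted p up to 0.0757 over all alternatives). The other genes not called were Hk1, Pfkfb1, Pfkfb2, Bpgm, Eno3, Galm (0.82 ± 0.26, adjusted p = 0.0501) and the tables' Pgm1.

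Set against cells without cytokine, the inhibitor-treated groups ended at different levels. With IL-2 + LDHi 18 of the 29 genes were not called, 6 were higher and 5 lower, with 24.2% of all tested genes called (10.9% higher, 13.3% lower), and the median difference was -0.02. Those above were Eno1 (1.15 ± 0.19, adjusted p = 0.00289), Pgk1 (0.87 ± 0.18, adjusted p = 0.00885), Tpi1 (0.69 ± 0.15, adjusted p = 0.00864), Pkm (0.50 ± 0.11, adjusted p = 0.0105), Gapdh (0.45 ± 0.11, adjusted p = 0.0143) and Adpgk (0.44 ± 0.10, adjusted p = 0.014). All but Adpgk belong to the steps after aldolase. Those below were Hk3 (-2.40 ± 0.26), Slc2a6 (-1.53 ± 0.30), Eno2 (-1.40 ± 0.34), Slc2a3 (-0.93 ± 0.23) and Pfkfb2 (-0.61 ± 0.14). In this comparison 11 of 11 macrophage and monocyte markers, 6 of 7 neutrophil markers and 7 of 7 basophil and mast cell markers were lower too, and their part in the difference of Hk3 was not tested. Hk2 was at 2.34 and 2.41 RPKM, inside the range of 1.93 to 2.79 RPKM without cytokine (-0.05 ± 0.29, interval -0.71 to 0.62). The count of 11 fell to 7 and 6 without replicate 1 or 2 of the cells without cytokine and to 2 and 3 without replicate 1 or 2 of IL-2 + LDHi, and Hk3 and Eno1 were the 2 genes called under every alternative.

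With IL-21 + LDHi 15 of the 29 genes were lower than without cytokine and 1 was higher, with 37.1% of all tested genes called (13.5% higher, 23.6% lower), and the median difference was -0.54 against -0.01 over all genes. Slc2a6 was 29.4-fold lower (-4.88 ± 0.39, adjusted p = 1.87e-05), Hk3 9.07-fold (-3.18 ± 0.27, adjusted p = 2.84e-05) and Hk2 6.93-fold (-2.79 ± 0.33, adjusted p = 0.000201). All tested markers of the same 3 lists were lower here (11, 7 and 7), and their part was not tested either. Eno2, Aldoc, Pfkp, Slc2a3, the tables' Pgm1, Galm, Pfkm, Tpi1, Gpi1, Pfkfb3, Gapdh and Hk1 were lower, with changes of -1.36 to -0.54. Adpgk was the gene that was higher (0.98 ± 0.10, adjusted p = 9.14e-05). Eno1 (0.02 ± 0.19), Bpgm (0.12 ± 0.13) and Pkm (-0.19 ± 0.11) were not called. The count of 16 fell to 9 without IL-21 + LDHi replicate 2.

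**Figure D3:**
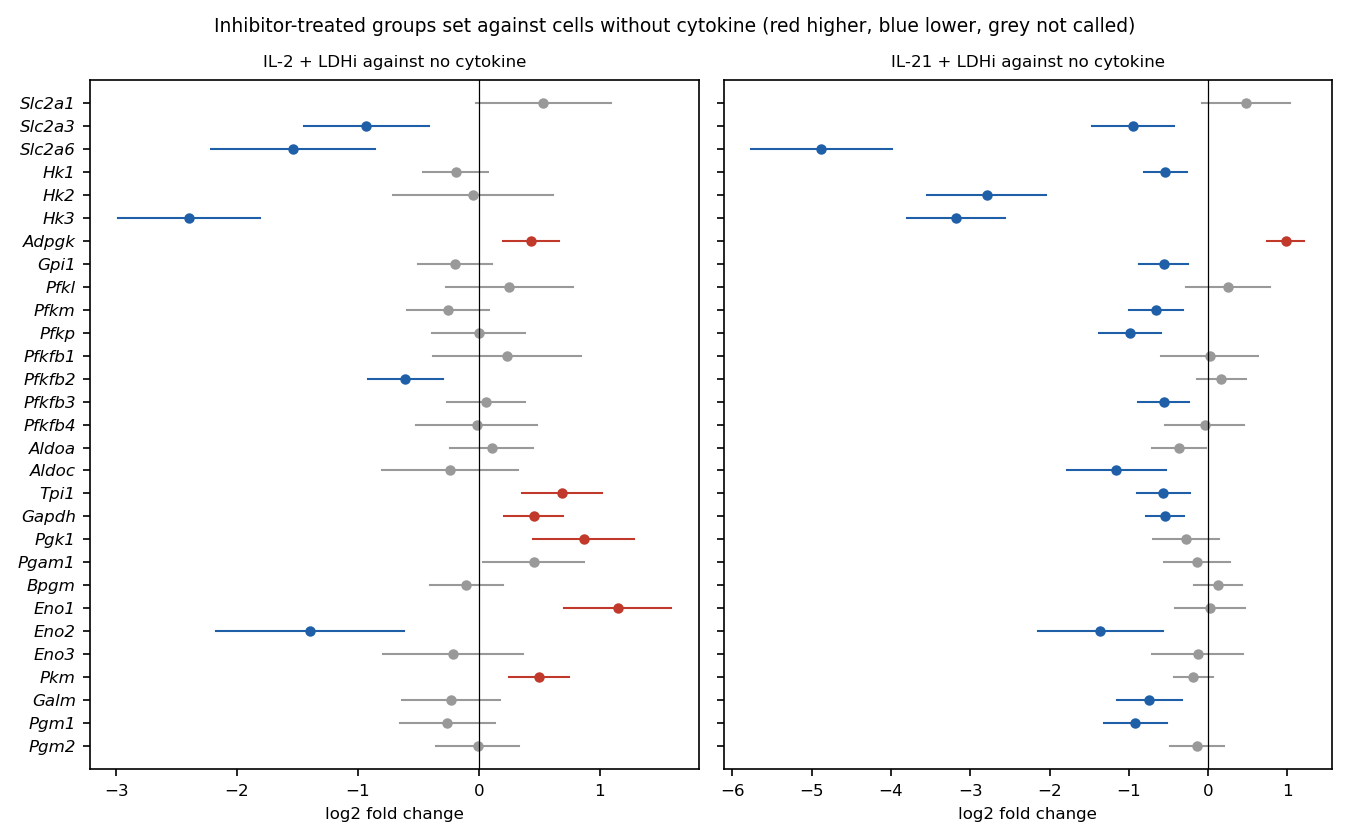
Log2 fold change (point) and 95% interval (bar) of 29 genes in IL-2 + LDHi and IL-21 + LDHi, each against cells without cytokine, red where higher, blue where lower and grey where not called. In the left panel most points lie near 0 and Tpi1, Gapdh, Pgk1, Eno1 and Pkm lie to the right of it, whereas in the right panel Adpgk is the single red point and Slc2a6 reaches -4.88.

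Between the 2 inhibitor-treated groups, 13 of the 29 genes were lower and 2 higher with IL-21, with 26.1% of all tested genes called (9.39% higher, 16.7% lower). Slc2a6 was 10.1-fold lower (-3.34 ± 0.39, adjusted p = 0.000259) and Hk2 6.71-fold (-2.75 ± 0.33, adjusted p = 0.000301). Tpi1 (-1.26 ± 0.15), Pgk1 (-1.15 ± 0.19), Eno1 (-1.13 ± 0.19), Gapdh (-1.0 ± 0.11) and Pfkp (-0.99 ± 0.17) were lower as well, and Pfkfb2 (0.77 ± 0.14) and Adpgk (0.54 ± 0.10) higher. Slc2a1 was at 12.2 and 13.1 RPKM with IL-2 + LDHi and 9.86 and 11.6 RPKM with IL-21 + LDHi (-0.06 ± 0.24, interval -0.61 to 0.49), and Slc2a3 was at 12.3 and 12.6 RPKM against 10.71 and 10.95 RPKM (-0.02 ± 0.23, interval -0.53 to 0.49). The plasma membrane transporters thus showed no called difference where the lysosomal one did. Aldoa and Pgam1 lie just inside the threshold (adjusted p = 0.048 and 0.0435) and lost the call with the replicate number as a block (adjusted p = 0.0518 and 0.0520). The count of 15 fell to 9 without IL-2 + LDHi replicate 1.

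The mix of isoenzymes within a step is given as shares of the summed RPKM, as a description, because 2 libraries a group allow no exact test to pass. Hexokinase was mostly Hk1 in every library. Hk2 made up 30.7 and 22.1% of it with IL-2, 4.61 and 6.15% without cytokine, 6.13 and 6.43% with IL-2 + LDHi, 5.73 and 6.92% with IL-21, and 1.19 and 1.33% with IL-21 + LDHi. The IL-2 libraries thus held the highest and the IL-21 + LDHi libraries the lowest Hk2 shares, with no overlap. In phosphofructokinase-1, Pfkp made up 75.7 and 76.4% with IL-2 and 72.8 and 77.3% with IL-21, but 52.4 and 51.6% with IL-21 + LDHi, where Pfkl reached 35.4 and 36.5%. Pfkl had been at 14.6 to 20.9% in the groups without inhibitor.

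The transporters shifted too. Slc2a3 made up 66.6 and 70.2% of their level without cytokine, 64.3% in both IL-2 libraries and 61.5 and 58.5% with IL-21. With the inhibitor Slc2a1 and Slc2a3 were about equal, at 48.5 and 49.3% for Slc2a1 against 48.8 and 47.4% for Slc2a3 with IL-2 + LDHi, and 47.7 and 51.3% against 51.8 and 48.5% with IL-21 + LDHi. Slc2a6 held 6.37 and 6.52% without cytokine and 0.416 and 0.206% with IL-21 + LDHi. Among the PFKFB genes Pfkfb3 made up 77.9 and 73.3% with IL-2 and 37.4 and 32.3% with IL-21 + LDHi, while Pfkfb2 went from 6.76 and 8.68% to 43.9 and 43.8%. By the transcripts used, the leading PFKFB gene thus differed between these 2 groups. With IL-21 + LDHi, Pfkfb2 was at 5.49 ± 0.0572 RPKM by the transcript used and Pfkfb3 at 4.35 ± 0.400 RPKM. The other listed Pfkfb2 transcripts were at 3.07 ± 0.520, 3.64 ± 0.618 and 5.76 ± 1.16 RPKM, so the lead there depends on the transcript. Aldoc reached 5.42 and 5.03% of aldolase with IL-2 and stayed at or below 1.11% elsewhere. The tables' Pgm2 made up 86.7 and 84.7% of phosphoglucomutase with IL-2 and 45.3 to 69.1% in the other libraries.

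**Figure D4:**
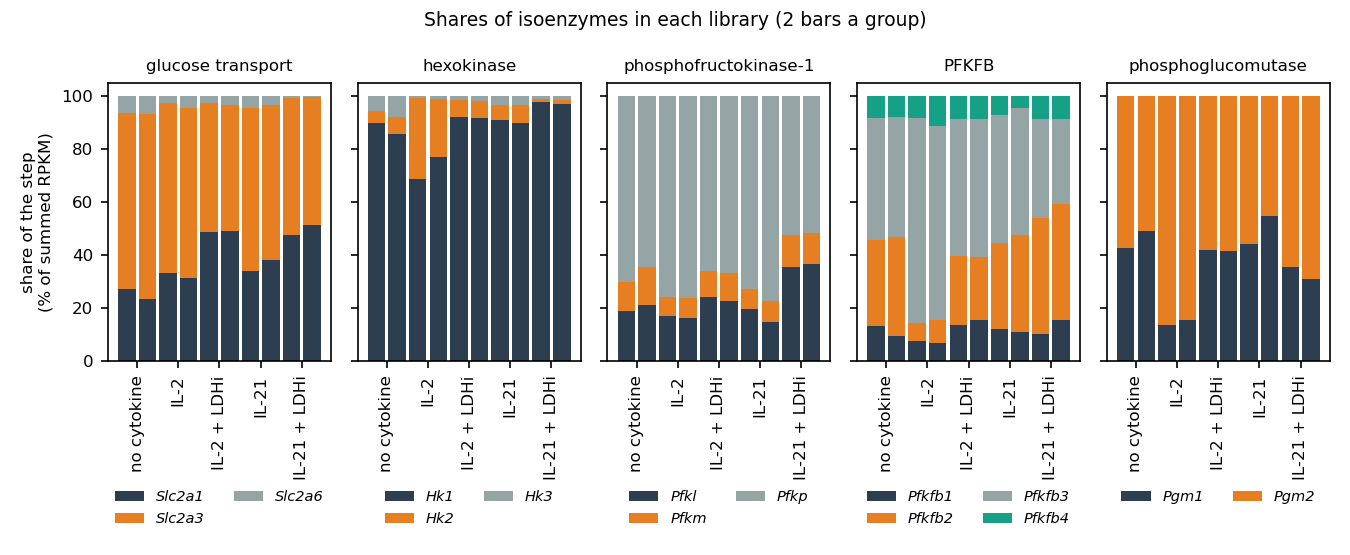
Share of each isoenzyme in the summed RPKM of 5 steps (% of the step), with 1 stacked bar for each library and 2 bars a group. Hk2 widens with IL-2 (30.7 and 22.1%) and Pfkfb2 with IL-21 + LDHi (43.9 and 43.8%), while Slc2a1 and Slc2a3 are near equal in the 4 bars with inhibitor.

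Pyruvate kinase of muscle type is spliced in 2 ways that exchange a single exon. The M2 form is known from proliferating cells and the M1 form from muscle and brain. Both transcripts are listed and both are 2432 bases long, and since a read on the shared exons is counted in each of them, they differ by the exchanged exon alone, which is 6.87% of the length. The exons are shown because they are all that separates these counts: they are 167 bases each (GRCm38, plus strand, M2 at chr9:59675568-59675734 and M1 at chr9:59675029-59675195), 103 positions are identical and 64, printed in capitals, differ.
Pkm M2 exon: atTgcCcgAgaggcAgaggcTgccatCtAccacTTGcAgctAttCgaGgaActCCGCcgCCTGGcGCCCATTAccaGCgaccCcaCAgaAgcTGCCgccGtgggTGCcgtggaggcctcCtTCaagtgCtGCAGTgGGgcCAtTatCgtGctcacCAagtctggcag
Pkm M1 exon: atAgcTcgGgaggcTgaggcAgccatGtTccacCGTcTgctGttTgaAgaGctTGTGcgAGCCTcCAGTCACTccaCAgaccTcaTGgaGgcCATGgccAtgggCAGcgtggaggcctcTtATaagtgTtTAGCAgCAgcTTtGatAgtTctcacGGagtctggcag

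The M2 transcript had more reads than the M1 transcript in all 10 libraries. Without cytokine the M2 transcript had 23553 and 17543 reads and exceeded the M1 transcript by 1045 and 614 reads. With IL-2 the M2 transcript had 115131 and 116509 reads, and the excess was 4990 and 4865 reads. With IL-2 + LDHi the excess was 1455 and 1316 reads, with IL-21 it was 1321 and 375 reads, and with IL-21 + LDHi it was 554 and 688 reads. As a share of the M2 transcript's reads it was 2.07 to 4.75%, with both ends of that range in the IL-21 pair, and the groups overlapped. Reads within the exchanged exons were not given apart, so the ratio of the 2 forms cannot be read from these values.

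The start regions of the 30 genes were searched for ACGTG, the core letters of the hypoxia response element, on both strands, from 250 bases before to 50 bases after each annotated start in RefSeq (GRCm38.p6). Of the 30 genes 28 had such a region, with 44 regions in all. ACGTG was found in 45.5% of these regions and in 19.6% of all 32851 regions of the table. By gene the shares were 16 of 28 (57.1%) and 21.8%. The median GC content was 57.3% in the 44 regions and 52.7% in all. The longer CACGTG, an E-box that contains ACGTG, was found in 6.82% and 7.15%. A match describes letters only and is no sign of binding.

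Windows of 30 bases are shown in the direction of transcription, with the matched letters in capitals (CACGT is ACGTG on the other strand). They were made only for matches wholly before a start, and those of some genes are shown as examples. Aldoc, Gapdh and Hk1 also hold the letters, but not wholly before a start, and so have no window. Hk3, Pfkfb2, Pfkm and the tables' Pgm1 and Pgm2 have windows that are not shown.
Pgk1: aaatggaagtagCACGTctcactagtctcg
Aldoa: tgtggctcgagtCACGTcctagcggggcgg
Pgam1: cgctccttgcttACGTGcgctccgtgactg
Pkm: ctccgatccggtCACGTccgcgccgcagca
Hk2: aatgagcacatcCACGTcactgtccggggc
Slc2a1: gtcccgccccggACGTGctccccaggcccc
Pfkfb3: ctccgcgccgtgACGTGccaagctgtgacc
Adpgk: tgtgacgttacgCACGTctacgtcagcacg

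The match lies 131 bases before the start in Pgk1, 114 in Pgam1, 75 in Pkm, 52 in Hk2, 36 in Slc2a1, 60 in the Pfkfb3 region shown and 23 in Adpgk. Aldoa has it in 2 overlapping regions, 202 and 126 bases before their starts. Adpgk holds the letters and fell with IL-2, and so do Hk3 and Pfkfb2, while Tpi1, Eno1, Pfkp and Gpi1 rose with IL-2 and have no match in their regions. The 16 tested genes with a match had a median IL-2 change of 2.27, from -2.92 (Hk3) to 6.39 (Aldoc), and the 11 without a match had a median of 1.58, from -0.62 (Bpgm) to 3.37 (Tpi1). These ranges overlap widely.

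Other genes of sugar metabolism were looked up from lists of enzymes and carriers. Of 18 tested genes for the fate of pyruvate, 8 rose and 2 fell with IL-2, and 7 fell and 0 rose with LDHi in IL-2, where 50.5 and 39.4% of all tested genes were called. Slc16a3 (MCT4, a lactate exporter) was at 2.63 and 3.47 RPKM without cytokine, 64.7 and 33.3 RPKM with IL-2 and 1.70 and 1.62 RPKM with IL-2 + LDHi. It rose by 3.99 ± 0.34 with IL-2 (adjusted p = 2.69e-05), and with the inhibitor changed by -4.93 ± 0.35 in IL-2 (adjusted p = 2.35e-05) and by -4.23 ± 0.41 in IL-21 (adjusted p = 8.47e-05), to 0.156 and 0.185 RPKM. Ldha, the target enzyme's main gene in these cells, was at 220.3 and 208.7 RPKM without cytokine and 1063 and 891 RPKM with IL-2, and rose by 2.17 ± 0.17 (adjusted p = 2.03e-05). With the inhibitor Ldha changed by -1.85 ± 0.17 in IL-2 (adjusted p = 8.44e-05) and by -0.70 ± 0.17 in IL-21 (adjusted p = 0.0125). Bsg, the chaperone of the lactate carriers, rose by 1.58 ± 0.11 with IL-2 and changed by -1.57 ± 0.11 with the inhibitor in IL-2.

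Of 21 tested regulators of the pathway, 6 rose and 4 fell with IL-2, near the share of 50.5% called over all tested genes. Egln3, an oxygen-sensing hydroxylase, was at 2.49 and 2.03 RPKM without cytokine, 71.8 and 31.2 RPKM with IL-2 and 1.06 and 0.970 RPKM with IL-2 + LDHi, with a rise of 4.5 ± 0.37 and a change of -5.70 ± 0.40 with the inhibitor. Mxi1, a repressor of the Myc network, rose by 1.87 ± 0.17 with IL-2 and changed by -2.38 ± 0.18 with the inhibitor. Myc rose by 1.60 ± 0.15 with IL-2 (adjusted p = 4.4e-05), from 28.0 and 29.2 RPKM to 89.9 and 85.2 RPKM. With IL-2 + LDHi Myc was at 46.4 and 46.5 RPKM, with IL-21 at 44.0 and 49.4 RPKM and with IL-21 + LDHi at 48.6 and 50.1 RPKM. Hif1a, the oxygen-regulated subunit of HIF-1, was at 46.5 and 46.2 RPKM without cytokine, 105.5 and 105.1 RPKM with IL-2 and 42.9 and 50.2 RPKM with IL-21. It fell with the inhibitor in both cytokines, -2.13 ± 0.16 with IL-2 (adjusted p = 3.61e-05) and -1.51 ± 0.16 with IL-21 (adjusted p = 0.000145). Hif1a then stood at 24.4 and 25.2 RPKM with IL-2 + LDHi and at 17.7 and 16.3 RPKM with IL-21 + LDHi.

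How reads were assigned limits some values. Whether counting used the strand is not stated, and where exons of another gene overlap, reads of the pair cannot be told apart without it. In GENCODE M21, exons of Pfkp share 748 bases with Pitrm1, those of Gpi1 741 bases with Gm26762 and those of the tables' Pgm2 398 bases with Itgb3bp, all on the opposite strand, and those of Pfkfb2 share 1262 bases with Gm29427 and those of Pkm 767 bases with Gm49759 on the same strand. Gapdh, Pgk1, Aldoa, Tpi1 and Eno1 are known to have processed copies elsewhere in the genome, and the treatment of reads that match several places is likewise not stated.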

How the data were processed

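Poly(A) RNA was sequenced from 10 libraries in 5 groups of 2. The deposited tables hold read counts per RefSeq transcript, the transcript length and the authors' RPKM of the same transcripts, with library totals of 45138204 to 62848913 reads. Per the submitters' processing notes, mm10, TopHat2 (2.2.1), Bowtie2 (2.2.6), SAMtools (0.1.8), bedtools (2.25.0) and edgeR were used, and the annotation release and strand handling are not stated. A read on several transcripts of a gene was counted in each of them.

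Each of 23992 symbols kept whichever transcript had most reads in all 10 libraries together. The test was that of edgeR 4.0.16, run in R 4.3.3 on the counts (filterByExpr with a minimum count of 10 and a minimum total of 15, TMM scaling, robust quasi-likelihood fit over all 10 libraries), two-sided, in 9 comparisons over 14357 genes. The common biological coefficient of variation was 0.171. The SE is the log2 fold change divided by the square root of F. Shares and levels use the authors' RPKM. Tables and figures were made with Python 3.11.15, pandas 2.3.3, numpy 2.4.6 and matplotlib 3.10.9.

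The genes and all lists were chosen with earlier results of these data known. All 30 genes are named. Of the lists of other sugar genes, up to 3 a list with the smallest p in a comparison are named, and Myc and Hif1a were named after their values were seen. Gene positions come from RefSeq (GRCm38.p6), where all 30 genes were found by transcript, and exon overlaps from GENCODE M21. The replicate numbers did not pair the libraries (correlation of deviations from -0.147 to 0.483 between same-numbered libraries). Alternatives were RLE size factors, library size alone, the authors' library total, no filter, a filter of RPKM 5 in 2 libraries, the replicate block, the longest transcript, DESeq2 1.42.0, limma 3.58.1 on log2(RPKM + 1), a fit of the compared groups alone, and leaving out each library. The test was also run on counts simulated with the spread that this same fit had estimated, so that run is no check of that spread.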

Additional observations from a re-analysis of the deposited data

Results flagged for a closer look

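The effect of LDHi differed between the 2 cytokines for 20 of the 29 tested genes by a test of the difference itself (the change with IL-21 minus the change with IL-2, log2 scale), 18 of them positive and 2 negative, with 21.8% of all tested genes called (7.98% positive, 13.8% negative). Among the transporters the difference was 1.41 for Slc2a1, 1.68 for Slc2a3 and -2.10 for Slc2a6. Hk3 was the hexokinase with a called difference (-2.29). In the middle of the pathway it was 1.29 for Gpi1, 1.93 for Pfkl, 1.54 for Pfkm, 1.05 for Pfkp, 0.88 for Pfkfb3 and 1.57 for Pfkfb4. For the aldolases it was 2.70 (Aldoa) and 4.64 (Aldoc). Of the later enzymes Tpi1 had 1.80, Gapdh 1.27, Pgk1 2.19, Pgam1 1.42, Eno1 1.61, Eno2 2.03 and Pkm 1.41. The tables' Pgm2 had 2.48. Of these 20 calls 15 held under every alternative run.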

How the results depend on the processing

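Of 157 called changes in 261 results of single genes and comparisons, 1 reversed: the Slc2a6 difference between the cytokines in the effect of LDHi was 0.24 in limma on log2(RPKM + 1), and the cause was not tested. Over 20 alternatives 4881 of 5166 values stayed on their side of the threshold (120 of them, called in neither fit, changed sign), 181 lost the call, and 103 gained it. The longest-transcript alternative used the same transcript for each of these genes, so their results there could differ only through the fit of other genes. The counts of called genes under leave-one-out were 23 to 26 for IL-2 against no cytokine, 0 to 7 for IL-21 against no cytokine (3 in the reported fit), 25 to 27 for IL-21 against IL-2, 22 to 27 and 10 to 18 for LDHi in IL-2 and in IL-21, 9 to 20 between the inhibitor-treated groups, 2 to 12 and 9 to 17 for these groups against no cytokine, and 15 to 23 for the difference between cytokines. For IL-21 against no cytokine DESeq2 called 6 and a fit of only the groups compared 0. For LDHi in IL-21 limma on log2(RPKM + 1) called 9 in place of 15. With the replicate block 257 of 261 results kept their side: Aldoa (-0.47) and Pgam1 (-0.59) between the inhibitor-treated groups lost the call, and Aldoc in IL-21 against no cytokine (0.84) and Hk3 between the inhibitor-treated groups (-0.80) gained it. Library size alone moved the median of all genes by -0.139 in IL-2 against no cytokine and 0.118 for LDHi in IL-2, and the authors' library total moved it by -0.150 to -0.181 in comparisons of IL-21 with no cytokine or IL-2 and between the inhibitor-treated groups. Depth limits Slc2a6 (5 and 9 reads with IL-21 + LDHi) and Pgam2 (0 to 2 reads) most. Reads were also few with IL-21 + LDHi for Eno2 (25 and 33), Aldoc (44 and 29) and Hk3 (43 and 53). With IL-2 + LDHi Eno2 had 43 and 29 reads.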

Other observations

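Of 13 tested genes of glycogen metabolism, 8 rose and 1 fell with IL-2, and 10 fell and 1 rose with LDHi in IL-2, with 50.5 and 39.4% of all tested genes called in these comparisons. Gbe1, the branching enzyme, was at 4.07 and 4.6 RPKM without cytokine and 27.1 and 20.9 RPKM with IL-2 (2.45 ± 0.18, edgeR adjusted p = 1.25e-05). Gyg, the glycogen primer glycogenin, rose by 1.76 ± 0.13 (edgeR adjusted p = 1.15e-05). Pygl, the glycogen phosphorylase known from liver, fell with LDHi from 20.2 and 17.2 RPKM to 0.423 and 0.412 RPKM in IL-2 (-5.52 ± 0.36) and from 1.65 and 1.88 RPKM to 0.0795 and 0.0424 RPKM in IL-21 (-4.89 ± 0.44). Phka1, a subunit of phosphorylase kinase, was highest without cytokine, at 0.656 and 0.967 RPKM, and was at most 0.317 RPKM elsewhere.

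Of 4 tested genes of gluconeogenesis 3 rose with IL-2, where 25.6% of all tested genes rose. Pcx, pyruvate carboxylase, was at 0.453 and 0.465 RPKM without cytokine, 10.0 and 7.45 RPKM with IL-2 and 0.959 and 0.966 RPKM with IL-2 + LDHi. It rose by 4.23 ± 0.23 (edgeR adjusted p = 4.32e-06) and changed by -3.22 ± 0.22 with LDHi. Pck2, the mitochondrial PEP carboxykinase, rose by 2.17 ± 0.16 with IL-2 and changed by -1.42 ± 0.16 with IL-21 (edgeR adjusted p = 0.001), so that it differed in direction between the cytokines against the same control libraries. Ldhb, the second LDH subunit gene, went the other way from Ldha with the inhibitor in IL-21: it was at 2.48 and 1.23 RPKM with IL-21 and 5.21 and 6.66 RPKM with IL-21 + LDHi (1.67 ± 0.24, edgeR adjusted p = 0.000952).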
